A study of Homo sapiens with 9 samples.

Results

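The genes described here are the 7 fibrillar collagen chains COL1A1, COL1A2, COL3A1, COL5A1, COL5A2, COL5A3 and COL11A1, taken by symbol from the 58735 genes of the deposited table. They encode chains of collagens I, III, V and XI. All 7 were found in the table, 1 row each. GBM43 is a human glioblastoma line that was first carried as a patient-derived xenograft, and here its cells were grown inside hyaluronic acid gel devices. There were 9 libraries in 3 groups of 3. The MK801 group came from devices given 50 µM MK801, a channel blocker of NMDA-type glutamate receptors, and held core and invasive cells together, because too few cells had invaded to be cut out. The invasive group held cells dissected away from the core of control devices, and the core group held the cells that had stayed behind in control devices, which received DMSO or plain medium (both are stated). The model is therefore 1 cell line with no second line beside it, and an MK801 library is a mixture of positions that the control libraries keep apart. Nothing states that replicates were grown as independent cultures. The p-values therefore reflect variation among these libraries, part or all of which may be technical.

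Fibrillar collagens are secreted as procollagens. Each molecule is a triple helix of chains built from a long repeat of glycine followed by a pair of other residues. After the propeptides are trimmed the molecules line up into the banded fibrils that give connective tissue its tensile strength. Type I collagen is mostly a heterotrimer in which COL1A1 chains outnumber COL1A2 chains, type III is a homotrimer of COL3A1, and type V, made of COL5A1 with COL5A2 and in some tissues COL5A3, is buried in type I fibrils and limits their width. In normal brain these collagens are largely confined to vessels and meninges, while glioblastoma cells of mesenchymal character can make them in culture.

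The repeat can be read in the coding sequence as a glycine codon, which begins with GG, followed by a pair of other codons. In the GENCODE 29 transcript with the longest coding sequence of each gene, the longest uninterrupted run of this pattern held 337 repeats in COL5A3, 338 in COL1A1, COL5A1 and COL11A1, 339 in COL1A2 and COL5A2 and 343 in COL3A1. The run made up 69.2% of the COL1A1 coding sequence and 55.1% of the COL5A1 coding sequence. The first 90 bases of the run are shown for the partner chains of type I collagen and for a pair of type V chains whose values are set apart below, a difference between chains that was not tested, with the glycine codons in capitals.
COL1A1: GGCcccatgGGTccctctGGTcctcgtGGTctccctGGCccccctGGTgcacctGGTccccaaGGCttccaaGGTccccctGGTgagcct
COL1A2: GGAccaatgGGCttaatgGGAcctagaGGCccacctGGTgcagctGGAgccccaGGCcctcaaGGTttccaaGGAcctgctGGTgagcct
COL5A1: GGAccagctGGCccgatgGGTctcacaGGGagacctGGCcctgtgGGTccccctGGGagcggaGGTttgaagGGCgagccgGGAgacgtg
COL5A3: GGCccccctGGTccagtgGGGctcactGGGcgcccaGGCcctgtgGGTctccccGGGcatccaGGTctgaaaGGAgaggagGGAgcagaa
These are bases 654 to 743 of the COL1A1 transcript (chromosome 17), 742 to 831 of COL1A2 (chromosome 7), 2058 to 2147 of COL5A1 (chromosome 9) and 1521 to 1610 of COL5A3 (chromosome 19). Base by base without gaps, COL1A1 and COL1A2 were identical at 62 of these 90 positions, and COL5A1 and COL5A3 at 63. The GC content of the whole run was 66.6% in COL1A1, 62.0% in COL1A2, 61.1% in COL3A1, 67.7% in COL5A1, 59.7% in COL5A2 and 67.6% in COL5A3. The libraries themselves differed in GC content, and the part of the run's GC content in the values below was not tested. The GC trend below uses another measure, averaged over all transcripts of a gene. By that measure COL1A2 stood at 49.8% and COL3A1 at 48.2%.

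The authors' unit is FPKM, fragments scaled to a deposited gene length and to a total per library. That length was 9819 bases for COL1A1 and 11156 for COL1A2, where the transcripts read above have 6727 and 5411 bases. Levels of different genes, their order and their ratios therefore rest on the lengths used. Libraries held 15.6 to 54.4 M (mega) fragments assigned to genes. The total the authors divided by was 0.769 to 1.19 times those fragments in MK801, 0.788 to 1.06 times in invasive and 1.10 to 1.23 times in core libraries. Dividing by the fragments in genes instead moved the median log2 difference of all tested genes to -0.21 for MK801 minus core and to -0.25 for invasive minus core. At an equal depth, 15161 to 21517 genes were detected in MK801, 15975 to 19140 in invasive and 20322 to 21414 in core libraries. The fragment-weighted mean GC content of transcripts was 54.6, 53.5 and 51.1% in MK801 replicates 1, 2 and 3, 53.1 to 54.7% in invasive and 50.4 to 51.6% in core libraries. Of 10 glioma and astrocyte markers, 5 reached 1 FPKM in at least 3 libraries and 5 stayed under 1 FPKM in every library. VIM and CD44 were abundant, SLC1A3 stood at 5.69 to 10.1, EGFR at 3.19 to 6.43 and SOX2 at 1.39 to 3.26 FPKM. AQP4 and OLIG2 were at 0 and NES, GFAP and S100B under 1 FPKM in every library. Testing used limma on log2(FPKM + 1) for the 11845 genes with 1 FPKM or more in 3 libraries or more, 6 of the 7 chains among them. Adjusted p-values are Benjamini-Hochberg values over those 11845 genes, held to a threshold of 0.05. Of the chains, 5 reached 1 FPKM in all 9 libraries. COL3A1 reached it only in the 3 invasive libraries and so entered the test through the group where it was high. Fitted to all 9 libraries, limma called no chain in any comparison, and 0% of genes were called in each comparison.

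COL1A1 (ENSG00000108821, chromosome 17, 50183289 to 50201632, minus strand) encodes the more abundant chain of type I collagen. It stood at 93.5, 71.8 and 26.3 FPKM in MK801 replicates 1, 2 and 3, at 217, 341 and 185 FPKM in the invasive libraries, and at 57.8, 27.2 and 27.2 FPKM in the core libraries. All invasive libraries lay above all others, and the MK801 libraries ran from below the lowest core library to above the highest. Invasive minus core was 2.74 on the log2 scale (SE 0.48, 95% interval 1.68 to 3.79, limma adjusted p = 0.0706). MK801 minus invasive was -2.07 (interval -3.12 to -1.01, limma adjusted p = 0.224), and MK801 minus core 0.67 (interval -0.39 to 1.72, limma adjusted p = 0.338). In bulk RNA of this kind, fewer expressing cells and less RNA per cell cannot be told apart.

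COL1A2 (ENSG00000164692, chromosome 7, 94394561 to 94431232, plus strand) encodes the partner chain of type I collagen. It stood at 67.3, 71.4 and 40.4 FPKM in MK801 libraries, 156, 205 and 127 FPKM in invasive libraries and 68.9, 31.9 and 40.8 FPKM in core libraries. The order of groups was that of COL1A1, with the MK801 libraries again overlapping the core range and lying wholly below the invasive range. The log2 difference was 1.81 for invasive minus core (SE 0.34, interval 1.05 to 2.57, limma adjusted p = 0.0750), -1.45 for MK801 minus invasive (interval -2.21 to -0.68, limma adjusted p = 0.227) and 0.36 for MK801 minus core (interval -0.40 to 1.12).

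COL3A1 (ENSG00000168542, chromosome 2, 188974320 to 189012746, plus strand) encodes the sole chain of type III collagen, which often shares fibrils with type I in soft tissue. It was scarce here. It stood at 0.0311, 0.304 and 0.443 FPKM in MK801 libraries, from 3, 32 and 196 fragments. In invasive libraries it stood at 3.75, 2.81 and 1.59 FPKM, from 428, 345 and 216 fragments, and in core libraries at 0.612, 0.308 and 0.319 FPKM, from 116, 36 and 49 fragments. The invasive libraries stood above all others, and the MK801 and core ranges overlapped. The mean was 0.0954 times the invasive mean in MK801 libraries, and the invasive mean was 6.58 times the core mean. The log2 difference was 1.36 for invasive minus core (SE 0.27, limma adjusted p = 0.0790) and -1.53 for MK801 minus invasive (SE 0.27, limma adjusted p = 0.0852), both understated by the pseudocount at levels this low.

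COL5A1 (ENSG00000130635, chromosome 9, 134641774 to 134844843, plus strand) encodes the chain common to nearly all type V collagen, and its loss of function causes classical Ehlers-Danlos syndrome. It stood at 15.9, 15.2 and 9.68 FPKM in MK801 libraries, 38.4, 54.7 and 26.4 FPKM in invasive libraries and 18.2, 11.3 and 10.7 FPKM in core libraries. Its invasive range lay above both others. The log2 difference was 1.48 for invasive minus core (SE 0.32, interval 0.78 to 2.19, limma adjusted p = 0.0794), -1.46 for MK801 minus invasive (interval -2.16 to -0.75, limma adjusted p = 0.200) and 0.03 for MK801 minus core (interval -0.68 to 0.73), the sign of which turned in 9 of 22 alternative fits.

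COL5A2 (ENSG00000204262, chromosome 2, 189031896 to 189225312, minus strand) encodes the usual partner of COL5A1 and lies 19.1 kb from COL3A1, the pair being transcribed towards each other. It stood at 5.27, 9.99 and 9.56 FPKM in MK801 libraries, 18.9, 22.2 and 17.7 FPKM in invasive libraries and 17.6, 9.99 and 11.7 FPKM in core libraries. The lowest invasive library was only just above core replicate 1, and MK801 replicate 1 had the lowest value of all. Divided by the fragments in genes, core replicate 1 (20.7) passed all 3 invasive libraries (19.0, 17.5 and 18.9), and the invasive and core groups overlapped. The log2 difference was 0.58 for invasive minus core (interval -0.05 to 1.20, limma adjusted p = 0.151), -1.19 for MK801 minus invasive (interval -1.81 to -0.56, limma adjusted p = 0.227) and -0.61 for MK801 minus core (interval -1.24 to 0.01, limma adjusted p = 0.235).

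COL5A3 (ENSG00000080573, chromosome 19, 9959561 to 10010471, minus strand) encodes a type V chain of more restricted distribution. It stood at 1.27, 3.27 and 2.88 FPKM in MK801 libraries, 2.80, 3.90 and 1.84 FPKM in invasive libraries and 3.77, 1.89 and 1.45 FPKM in core libraries. All 3 groups overlapped. The log2 difference was 0.22 for invasive minus core (interval -0.53 to 0.96, limma adjusted p = 0.624), -0.16 for MK801 minus invasive (interval -0.91 to 0.58) and 0.05 for MK801 minus core (interval -0.69 to 0.79), intervals that leave room for a difference of either sign.

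COL11A1 (ENSG00000060718, chromosome 1, 102876467 to 103108872, minus strand) encodes a chain of type XI collagen, the cartilage counterpart of type V that is also made in the stroma of several carcinomas. It had 0 fragments in all 9 libraries. For counting error alone (3 fragments per library), this allows up to 0.00508 FPKM in MK801 replicate 3 and up to 0.0233 FPKM in MK801 replicate 1. These libraries had the largest and the smallest total that the authors divided by.

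RefSeq promoter entries (250 bases before to 50 after the transcription start, GRCh38.p14) matched 3 of the 7 chains, all of the type V and XI subfamily. They are shown because these genes spanned a chain that was higher in invasive libraries, a chain whose groups overlapped and a chain with no fragments. Capitals mark the CCAAT box (CCAAT), which the NF-Y complex binds, and the GC box (GGGCGG), which Sp-family factors bind, each searched on both strands.
COL5A1, chr9:134641553-134641852, plus strand: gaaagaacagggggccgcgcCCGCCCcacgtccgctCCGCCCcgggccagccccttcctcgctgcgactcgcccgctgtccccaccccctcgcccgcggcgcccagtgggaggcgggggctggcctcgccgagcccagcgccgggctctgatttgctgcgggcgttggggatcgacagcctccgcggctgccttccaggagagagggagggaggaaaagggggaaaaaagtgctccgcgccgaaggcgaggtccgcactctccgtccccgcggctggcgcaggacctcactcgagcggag
COL5A3, chr19:10010455-10010754, minus strand: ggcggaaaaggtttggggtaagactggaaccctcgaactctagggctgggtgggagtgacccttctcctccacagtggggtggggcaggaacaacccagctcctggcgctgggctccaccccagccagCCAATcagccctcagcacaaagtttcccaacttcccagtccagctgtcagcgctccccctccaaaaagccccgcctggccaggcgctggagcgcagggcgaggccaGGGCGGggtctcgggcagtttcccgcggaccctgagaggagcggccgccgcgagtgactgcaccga
COL11A1, chr1:103108473-103108772, minus strand: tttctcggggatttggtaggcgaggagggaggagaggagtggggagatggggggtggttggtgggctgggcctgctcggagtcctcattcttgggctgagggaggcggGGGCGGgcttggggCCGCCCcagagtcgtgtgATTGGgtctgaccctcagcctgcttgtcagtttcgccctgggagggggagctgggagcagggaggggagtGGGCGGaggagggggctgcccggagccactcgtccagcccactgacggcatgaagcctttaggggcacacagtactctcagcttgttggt
COL5A1 held 2 GC boxes, 230 and 214 bases before the start, and no CCAAT. COL5A3 held 1 CCAAT box 122 bases before the start and 1 GC box 16 bases before it. COL11A1 held 1 CCAAT box 110 bases before the start and 3 GC boxes, 142, 128 and 40 bases before it. No motif overlapped another, and TATAAA was in none of the 3 windows. Of 35116 RefSeq promoter windows of this length, 34.6% held CCAAT, 45.0% GGGCGG and 11.5% TATAAA on either strand. These are letter matches and do not show binding. The starts used here are those of the promoter entries, which can differ from the gene coordinates given above. The COL11A1 window lies wholly inside its gene, which begins at 103108872 on the minus strand. COL5A1 had 2 entries, and 1 window is shown.

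**Figure D1:**
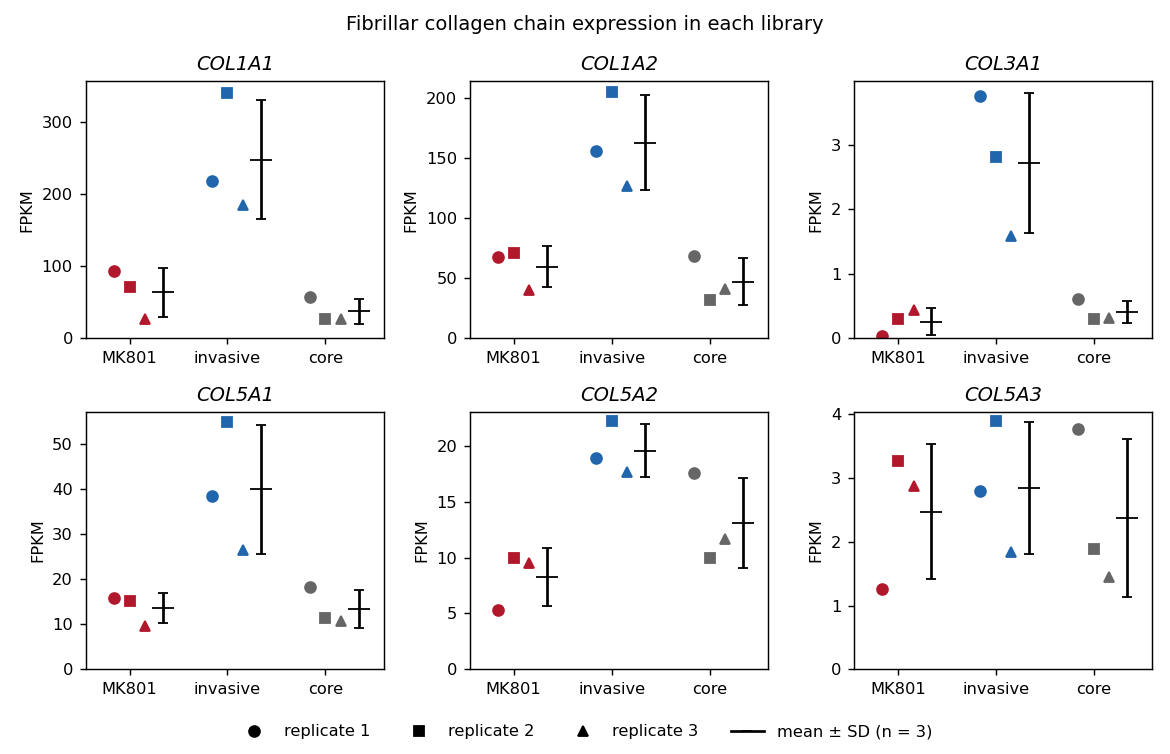
FPKM of the 6 fibrillar collagen chains with fragments, 1 panel per gene on its own linear axis from 0. Symbols are libraries by replicate number within MK801, invasive and core groups, and bars are the mean ± SD of n = 3. The 3 invasive libraries stand above all others for COL1A1, COL1A2, COL3A1 and COL5A1, and all 3 groups overlap for COL5A3.

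The comparison of invasive with core cells asks what sets apart tumour cells that have left the mass. Of the 5 chains at 1 FPKM or more in every library, 5 were higher in invasive libraries, as were 49.1% of all tested genes. Their median log2 difference was 1.48, and that of all tested genes -0.02. The groups did not overlap for 4 of these 5, where 32% of all tested genes were higher without overlap. An unadjusted p under 0.05 was reached by 3 of the 5, against 20.3% of all genes in that direction. In limma fitted to the 6 control libraries alone, COL1A1 (adjusted p = 0.0030), COL1A2 (0.0037), COL5A1 (0.0049) and COL5A2 (0.0449) rose in invasive libraries and COL5A3 did not pass (0.533). COL3A1, admitted to the test by its invasive values, is left out of the chains counted here and in the fits that follow. That fit called 52.2% of all genes, so the number of chains past its threshold is not a result about them. With each library's trend over GC content removed as well, it called 20.4% of genes and COL1A1, COL1A2 and COL5A1 among them. In the fit of all 9 libraries, leaving out MK801 replicate 1 or MK801 replicate 3 also brought these 3 chains past the threshold, at 39.5% and 41.3% of all genes.

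Setting MK801 libraries against invasive ones compares treated cells of both positions with control cells that invaded. Treatment and position cannot be told apart in it. Of the same 5 chains, 5 were lower in MK801 libraries, as were 50.2% of all tested genes. Their median log2 difference was -1.45, and that of all tested genes -0.00195. The groups did not overlap for 4 of the 5, where 5.63% of tested genes were lower without overlap. An unadjusted p under 0.05 was reached by 4 of the 5, against 4.51% of all genes in that direction. None passed after adjustment. With the GC trend removed, limma on all 9 libraries called 54 genes (0.456%), and 2 of the 5 chains were among them, both lower in MK801 libraries. These were COL1A1 (log2 -1.93, SE 0.31, adjusted p = 0.0338) and COL5A1 (-1.32, SE 0.21, adjusted p = 0.0331). COL1A2 (-1.48, SE 0.32, adjusted p = 0.0766) and COL5A2 (-1.23, SE 0.26, adjusted p = 0.0706) did not pass in that fit. Fitted on the 6 libraries alone with the GC trend removed, no chain passed.

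Setting MK801 libraries against core ones puts treated cells of both positions beside control cells that stayed in place. Of the same 5 chains, 4 were higher in MK801 libraries (50.3% of all tested genes were) and 1 was lower (49.7%). Their median log2 difference was 0.05, and that of all tested genes 0.00470. None had an unadjusted p under 0.05, which 10.6% of all genes had in each direction. All 6 chains with fragments had overlapping groups, where 9.89% of tested genes were higher and 8.82% lower without overlap. Without MK801 replicate 3, COL1A1 passed the threshold as higher in MK801 libraries (log2 1.20, limma adjusted p = 0.0229), in a fit that called 50.2% of all genes. Without MK801 replicate 1 the same difference was 0.31 (adjusted p = 0.767), and with the GC trend removed 0.15 (adjusted p = 0.818). The comparisons share libraries, so their differences are not independent of each other.

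**Figure D2:**
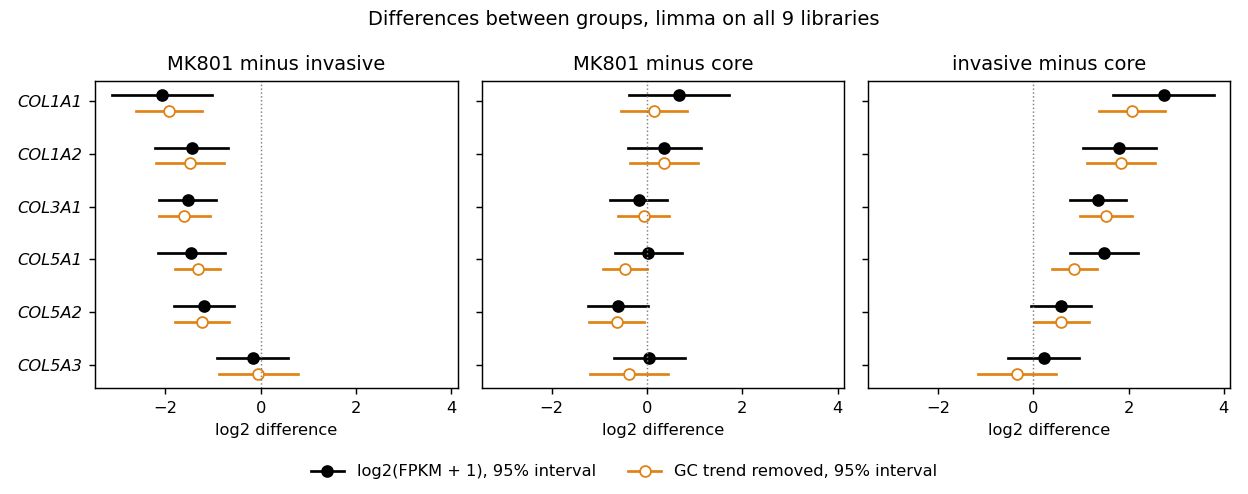
Log2 differences between groups for the 6 tested chains in limma on all 9 libraries, with 95% intervals, as deposited (filled) and after removal of each library's trend over GC content (open). COL1A1, COL1A2, COL3A1 and COL5A1 lie to the right of 0 for invasive minus core, 5 chains lie to the left for MK801 minus invasive, and COL5A3 straddles 0 in all 3 panels.

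At the deposited gene lengths, the order of the chains by level was nearly the same in each group. In MK801 libraries COL1A1 averaged 63.9 ± 34.3 FPKM and COL1A2 59.7 ± 16.8 FPKM (SD, n = 3), and their libraries overlapped. In invasive libraries COL1A1 led with 247 ± 82.2 FPKM, ahead of COL1A2 with 163 ± 39.6 FPKM, and in core libraries COL1A2 led with 47.2 ± 19.3 FPKM, ahead of COL1A1 with 37.4 ± 17.7 FPKM, with overlapping libraries in both groups. COL5A1 and COL5A2 followed in every group, at 13.6 ± 3.40 and 8.27 ± 2.61 FPKM in MK801, 39.9 ± 14.2 and 19.6 ± 2.34 FPKM in invasive and 13.4 ± 4.16 and 13.1 ± 4.0 FPKM in core libraries. This pair overlapped in MK801 and core libraries and did not in invasive libraries. COL5A3 came next and COL3A1 after it, this pair overlapping only in invasive libraries. Among 19951 protein-coding genes, COL1A1 ranked 643 by mean FPKM in MK801 libraries, 163 in invasive and 819 in core libraries.

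Ratios between chains within a library do not depend on how the library was scaled. COL1A1 over COL1A2 was 1.39, 1.01 and 0.650 in MK801 replicates 1, 2 and 3, 1.40, 1.66 and 1.45 in invasive libraries and 0.839, 0.853 and 0.666 in core libraries. At the deposited gene lengths COL1A1 thus exceeded COL1A2 in all 3 invasive libraries and in no core library, and the MK801 libraries spanned both. Other lengths would change this ratio by the same factor in every library, so which chain led rests on the lengths used. COL5A1 over COL5A2 was 3.01, 1.52 and 1.01 in MK801, 2.03, 2.46 and 1.49 in invasive and 1.03, 1.13 and 0.915 in core libraries. The summed type V chains were 0.139, 0.199 and 0.332 times the summed type I chains in MK801, 0.161, 0.148 and 0.148 times in invasive and 0.312, 0.392 and 0.351 times in core libraries. The invasive and core libraries did not overlap in any of these 3 ratios. COL5A3 over COL5A1 was 0.0798, 0.215 and 0.297 in MK801, 0.0697 to 0.0728 in invasive and 0.135 to 0.208 in core libraries.

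**Figure D3:**
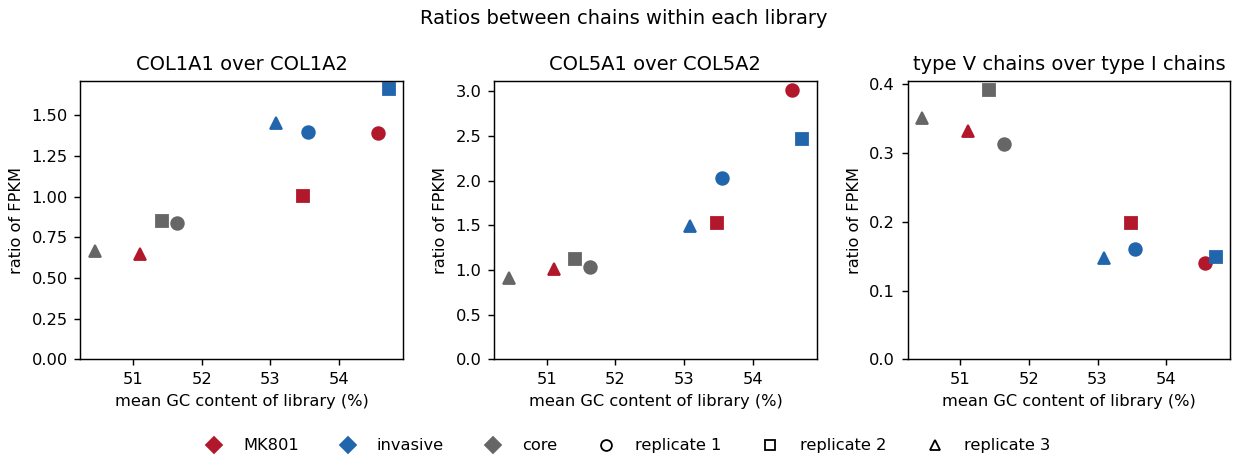
Ratios of FPKM between chains in each library against the library's fragment-weighted mean GC content in percent, coloured by group, with symbols for replicate numbers. Libraries of high GC content, among them all 3 invasive libraries and MK801 replicates 1 and 2, have the higher COL1A1 over COL1A2 and COL5A1 over COL5A2 ratios and the lower type V over type I ratios.

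These ratios moved with library GC content, and the chains differ in theirs: averaged over its transcripts, GC content was 60.8% for COL1A1, 59.4% for COL5A1 and 57.7% for COL5A3, against 49.8% for COL1A2, 49.9% for COL5A2 and 48.2% for COL3A1. With the GC trend removed, the log2 level of COL1A1 minus that of COL1A2 was -0.07, -0.19 and -0.20 in MK801, 0.29, 0.17 and 0.42 in invasive and 0.06, 0.13 and -0.03 in core libraries. The invasive libraries still lay above the core libraries, by a smaller margin, and the MK801 libraries lay below both groups. The trend removal lessened the invasive minus core difference of COL1A1 (2.74 as deposited and 2.07 after) and COL5A1 (1.48 and 0.86), both of high GC content. It left that of COL1A2 (1.81 and 1.83), COL5A2 (0.58 and 0.59) and COL3A1 (1.36 and 1.53) of similar size. COL5A3, also of high GC content, turned to -0.34. Beyond this removal, the part of library GC content in these values was not tested.

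Across the 9 libraries the log2 levels of COL1A1, COL1A2 and COL5A1 varied together, with Pearson's r of 0.983 between the type I chains, 0.960 between COL1A1 and COL5A1 and 0.971 between COL1A2 and COL5A1. Within groups, taking deviations from the group means, these were 0.915, 0.895 and 0.915. COL5A2 varied within groups with COL5A3 (0.910) and little with COL1A1 (0.06). COL3A1 showed no such relation to COL1A1 within groups (-0.02). Its r was 0.712 with COL5A3, 0.603 with COL5A2, 0.355 with COL5A1 and 0.246 with COL1A2. Outside the invasive libraries COL3A1 stayed under 1 FPKM, where the pseudocount narrows its spread. These describe 9 libraries that share group and GC differences and carry no test.

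The fibroblast and pericyte markers, cells that make these collagens in tissue, numbered 13 symbols, 1 of them on 2 rows. Their summed level was 29.2 to 54.3 FPKM in MK801, 58.3 to 102 FPKM in invasive and 27.2 to 36.5 FPKM in core libraries, and 9 of the 14 rows reached 1 FPKM in at least 3 libraries. By group mean, 7 of the 14 rows were higher and 6 lower in invasive than in core libraries. PDGFRB, the receptor that marks pericytes, was the highest of the list in every library, at 32.6, 27.7 and 14.2 FPKM in MK801, 45.5, 64.8 and 34.1 FPKM in invasive and 14.9, 9.26 and 10.6 FPKM in core libraries. THY1 (2.18, 5.30 and 1.46 FPKM on average in MK801, invasive and core libraries) had the order of PDGFRB. PDGFRA (1.96, 2.99 and 3.86 FPKM) and POSTN (0.778, 0.169 and 1.05 FPKM) were lower in invasive than in core libraries. The fibroblast proteoglycan gene DCN stayed under 1 FPKM in every library, TCF21 was at 0 in all and PDPN was at 0 in 8 of 9. The part of such cells in the collagen values was not tested. Summed endothelial markers stood at 1.34 to 1.60 FPKM in MK801, 1.79 to 5.34 FPKM in invasive and 1.36 to 1.56 FPKM in core libraries. By group mean, 3 of these 6 markers were higher and 3 lower in invasive than in core libraries. CDH5 averaged 0.233 FPKM in MK801, 1.78 FPKM in invasive and 0.0295 FPKM in core libraries. Summed myeloid markers stood at 1.75 to 4.83 FPKM in MK801, 4.14 to 5.84 FPKM in invasive and 1.75 to 2.78 FPKM in core libraries. CSF1R was the highest of the list in every library. By group mean, 1 of the 6 myeloid markers was higher, 3 were lower and 2 were equal in invasive and core libraries. Summed neuron and oligodendrocyte markers stayed under 1 FPKM.

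Genes that make, trim, bind and degrade fibrillar collagen were taken as 8 lists by role, 102 symbols in all, and up to 4 of the most abundant of each list are named. Limma on all 9 libraries called none of them in any comparison. Counts at an unadjusted p under 0.05 are to be read against all tested genes, of which 20.3% were higher and 17.4% lower at that p for invasive against core. For MK801 against invasive these shares were 3.75% higher and 4.51% lower, and for MK801 against core 10.6% in each direction. Of 20 genes of chain folding and modification tested, 16 were higher and 4 lower in invasive than in core libraries, with 11 and 1 at an unadjusted p under 0.05 and a median log2 difference of 0.95. SERPINH1, the collagen chaperone HSP47, averaged 82.1 ± 28.9 FPKM in MK801, 101 ± 18.5 FPKM in invasive and 44.4 ± 7.68 FPKM in core libraries (SD, n = 3 each). FKBP10, a prolyl isomerase of the endoplasmic reticulum, averaged 117 ± 39.3 FPKM in MK801, 186 ± 67.4 FPKM in invasive and 91.6 ± 17.0 FPKM in core libraries. P4HB, a subunit of prolyl hydroxylase, averaged 123 ± 43.4 FPKM in MK801, 169 ± 35.0 FPKM in invasive and 86.9 ± 10.9 FPKM in core libraries. CRTAP, which acts in prolyl 3-hydroxylation of collagen, averaged 74.7 ± 16.5 FPKM in MK801, 84.8 ± 5.63 FPKM in invasive and 62.7 ± 5.26 FPKM in core libraries. Between MK801 and invasive libraries 3 of these genes were higher and 17 lower, 0 and 3 at an unadjusted p under 0.05, with a median of -0.45. Between MK801 and core libraries 15 were higher and 5 lower, 5 and 2 at an unadjusted p under 0.05, with a median of 0.41.

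Of 10 propeptide-processing genes 3 were tested. PCOLCE, which enhances removal of the C-propeptide, averaged 18 ± 9.99 FPKM in MK801, 60.7 ± 20.3 FPKM in invasive and 14.5 ± 3.61 FPKM in core libraries, a log2 difference of 1.97 for invasive minus core (SE 0.42, limma adjusted p = 0.0794). BMP1, the protease that removes it, averaged 5.43 ± 1.62 FPKM in MK801, 9.21 ± 2.24 FPKM in invasive and 3.06 ± 0.482 FPKM in core libraries. ADAMTS14, a procollagen N-proteinase, was scarce at 1.21 ± 0.558 FPKM in MK801, 2.13 ± 0.409 FPKM in invasive and 2.0 ± 1.34 FPKM in core libraries.

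Of 4 lysyl oxidase genes tested, which encode the enzymes that crosslink fibrils, 3 were higher and 1 lower in invasive than in core libraries, all 4 at an unadjusted p under 0.05, as were 37.7% of all tested genes in either direction. LOXL1 stood at 29.8, 21.6 and 8.76 FPKM in MK801, 53.2, 58.3 and 54.3 FPKM in invasive and 19.9, 8.09 and 10.5 FPKM in core libraries, without overlap of the invasive libraries with the others. LOX went the other way, at 8.81, 15.3 and 19.5 FPKM in MK801, 19.6, 26.4 and 20.8 FPKM in invasive and 32.3, 42.3 and 33.0 FPKM in core libraries. LOXL2 averaged 80.2 ± 32.5 FPKM in MK801, 190 ± 103 FPKM in invasive and 68.9 ± 19.1 FPKM in core libraries, and LOXL3 7.54 ± 3.84, 13.8 ± 4.0 and 7.38 ± 1.14 FPKM in MK801, invasive and core libraries. Group means were thus split within the family, with LOX highest in the core libraries and LOXL1, LOXL2 and LOXL3 highest on average in the invasive libraries.

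Among 8 fibril partners tested, 7 were higher and 1 lower in invasive than in core libraries (5 and 1 at an unadjusted p under 0.05, median 0.93). FN1, fibronectin, averaged 27.1 ± 11 FPKM in MK801, 101 ± 40.9 FPKM in invasive and 26.9 ± 11.9 FPKM in core libraries. BGN, the small proteoglycan biglycan, averaged 150 ± 146 FPKM in MK801, 414 ± 367 FPKM in invasive and 58.2 ± 20.4 FPKM in core libraries, with an SD close to the mean in MK801 and invasive libraries. SPARC, a collagen-binding matrix protein, averaged 104 ± 26.3 FPKM in MK801, 171 ± 38.3 FPKM in invasive and 71.8 ± 14.3 FPKM in core libraries. THBS2, a thrombospondin that affects fibril assembly in mouse, averaged 4.54 ± 0.997 FPKM in MK801, 8.63 ± 1.55 FPKM in invasive and 3.6 ± 0.838 FPKM in core libraries. Between MK801 and invasive libraries 7 of the 8 were lower and 1 higher, 6 and 0 at an unadjusted p under 0.05, with a median of -0.78.

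Of 9 collagen receptors tested, 6 were higher and 3 lower in invasive than in core libraries (4 and 0 at an unadjusted p under 0.05). ITGA10, the alpha subunit of a collagen-binding integrin, averaged 27.3 ± 5.75 FPKM in MK801, 53.1 ± 16.8 FPKM in invasive and 27.2 ± 3.99 FPKM in core libraries. MRC2, which takes up collagen fragments, averaged 26.0 ± 9.43 FPKM in MK801, 57.9 ± 14.8 FPKM in invasive and 18.9 ± 5.44 FPKM in core libraries. OSCAR, a collagen receptor of osteoclasts, averaged 27.2 ± 6.75 FPKM in MK801, 31.5 ± 16.6 FPKM in invasive and 25.3 ± 6.25 FPKM in core libraries. ITGB1, the beta subunit that pairs with ITGA10, averaged 31.2 ± 19.7 FPKM in MK801, 40.8 ± 5.26 FPKM in invasive and 63.6 ± 3.59 FPKM in core libraries. Of 8 degradation genes tested, 6 were higher and 2 lower in invasive than in core libraries (5 and 1 at an unadjusted p under 0.05). MMP14, a membrane collagenase, averaged 454 ± 169 FPKM in MK801, 651 ± 209 FPKM in invasive and 318 ± 49.6 FPKM in core libraries, above the mean of every collagen chain in each group. MMP2, a gelatinase, averaged 259 ± 99.3 FPKM in MK801, 396 ± 53.5 FPKM in invasive and 191 ± 37.0 FPKM in core libraries. The inhibitor TIMP2 averaged 64.2 ± 26.8 FPKM in MK801, 136 ± 19.4 FPKM in invasive and 43.3 ± 13.0 FPKM in core libraries, and TIMP1 385 ± 189, 410 ± 208 and 198 ± 39.0 FPKM in MK801, invasive and core libraries.

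Of 20 regulators tested, 7 were higher and 13 lower in invasive than in core libraries (5 and 7 at an unadjusted p under 0.05, the 5 a share close to the 20.3% of all genes), with a median of -0.25 against -0.02 over all genes tested. CCN2, a matrix-associated TGF-beta target, averaged 20.3 ± 4.11 FPKM in MK801, 45.7 ± 10.8 FPKM in invasive and 11 ± 2.90 FPKM in core libraries. TGFB1, the ligand best known for inducing collagen genes, averaged 213 ± 134 FPKM in MK801, 237 ± 139 FPKM in invasive and 93.4 ± 19.8 FPKM in core libraries. NFYA, a subunit of the complex that binds CCAAT, averaged 23.4 ± 6.87 FPKM in MK801, 13.8 ± 1.37 FPKM in invasive and 25.1 ± 2.13 FPKM in core libraries. The receptor TGFBR2 averaged 22.3 ± 6.86 FPKM in MK801, 25.7 ± 1.86 FPKM in invasive and 33.0 ± 2.80 FPKM in core libraries. Of the 4 other fibrillar chains, COL27A1 was the one tested and stood at 3.08 ± 1.41 FPKM in MK801, 2.99 ± 0.145 FPKM in invasive and 3.25 ± 0.244 FPKM in core libraries.

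**Figure D4:**
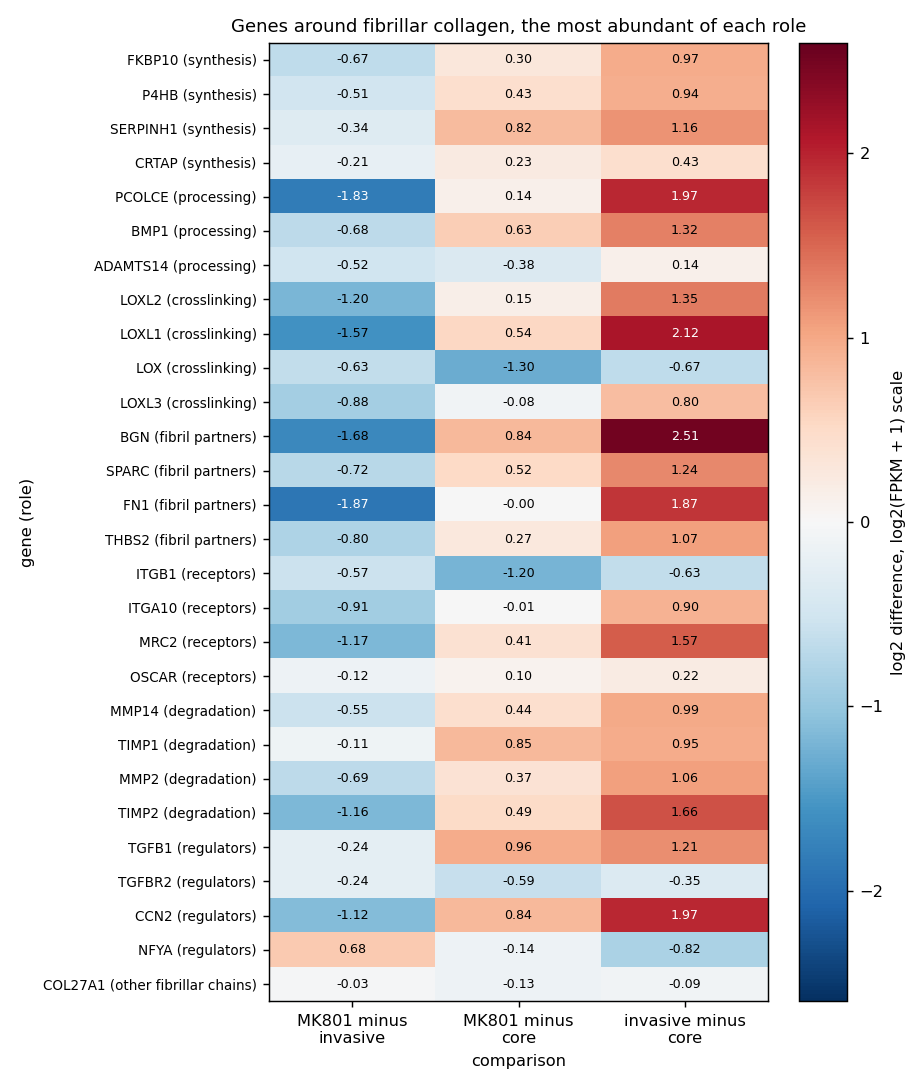
Log2 differences on the log2(FPKM + 1) scale for the most abundant tested genes of each role around fibrillar collagen, in limma on all 9 libraries, with MK801 minus invasive, MK801 minus core and invasive minus core as columns. PCOLCE, LOXL1, BGN, FN1 and CCN2 have the darkest red cells for invasive minus core. LOX, ITGB1, TGFBR2 and COL27A1 are below 0 in all 3 columns, COL27A1 only slightly.

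The mean standardised profile of the 6 tested chains was compared with 5889 other protein-coding genes of at least 5 FPKM over the 9 libraries. COL3A1, which entered the test through its invasive values, is part of that profile. Among the 10 genes most like it were ADAMTSL1, VCL, FN1, ITGA10, EMC1, PARP1, IGF2R, COL6A3 and CTSZ, with Pearson's r of 0.931 to 0.969 over 9 libraries. These genes were picked by r from all 5889, in libraries that share group and GC differences, so the r values carry no test. ADAMTSL1, a secreted matrix protein, averaged 5.25 ± 1.28 FPKM in MK801, 10.4 ± 1.33 FPKM in invasive and 5.93 ± 1.01 FPKM in core libraries. VCL, which encodes the adhesion protein vinculin, averaged 15.0 ± 1.24, 21.3 ± 3.10 and 15.2 ± 2.18 FPKM in MK801, invasive and core libraries. COL6A3, a chain of the beaded-filament collagen VI, averaged 36.6 ± 13.6, 103 ± 22.5 and 53.6 ± 15.3 FPKM in MK801, invasive and core libraries.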

How the data were processed

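RNA was sequenced from 9 libraries, 3 each of MK801, invasive and core groups. The deposited values are FPKM per gene, made by the authors. Per the submitters' processing notes HISAT2 2.0.5, featureCounts 1.5.0-p3 and GRCh38 were used, with settings not given in the sources used here. It is therefore unknown whether strand was used: 9 annotated genes overlap a chain, 5 of them on the opposite strand, none above 0.889 FPKM. FPKM times the deposited gene length gave whole fragments for 100% of values above 0 (tolerance 0.01), which gave each library's depth; such counts cover counting error only. Gene GC content came from GENCODE 29 transcripts, and identifiers and coordinates matched that release for 99.98% of genes.

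Limma 3.58.1 (R 4.3.3) fitted 1 mean per group to log2(FPKM + 1) of the 9 libraries and moderated the variances along a trend in mean level. The code was first run on simulated fragments drawn from core means, with the same spread in every library and no GC differences. That run does not bear on the unequal spread of the real libraries. Fold changes on this scale understate those of low genes. An exact permutation test of 3 against 3 cannot give p below 0.1 and was not used. Members and lists were chosen with earlier results of these data known. All chains are named, the 4 most abundant genes of each list by level, and 9 of the 10 genes most like the chains; the other one is not reported here. CCN2 was matched by its Ensembl identifier, and the marker genes singled out and the examples given from each named set were picked after looking at their values. The alternatives tried were a pseudocount of 0.1, no filter or 5 FPKM, median-of-ratios scaling, the replicate number as a block, the groups compared alone, limma-voom on recovered fragments with trimmed-mean (TMM) scaling, removal of each library's loess trend over GC content (span 0.3), and leaving out libraries. Groups compared alone combined with the GC trend or the block, and division by the fragments in genes, were added after the data were seen.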

Additional observations from a re-analysis of the deposited data

How the results depend on the processing

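Each of the 18 differences of the 6 tested chains was recomputed under up to 22 alternatives, 390 values in all. Of these, 334 kept their direction and side of the threshold, 32 passed the threshold and 24 turned in sign. Most of the 32 came from invasive versus core fits that called 20.4% to 60.2% of all genes, and some were of COL3A1. Their number is therefore not a result about the chains. COL1A1, COL1A2, COL5A1 and COL5A2 kept their direction for invasive versus core and MK801 versus invasive under every alternative run. COL3A1 did so too, but the filter admitted it through its invasive values, so its direction there adds no support. Signs turned for COL5A3 and for COL5A1, none past the threshold. For COL5A3 invasive minus core became -0.34 in the 3 fits with the GC trend removed, MK801 minus core -0.38 in the same 3, and MK801 minus invasive 0.31 without the 2 libraries with the fewest genes detected. For COL5A1, MK801 minus core became -0.46 in the 3 fits with the GC trend removed and -0.092 without those 2 libraries. Dividing by the fragments in genes gave -0.25 for COL5A1 and -0.13 for COL5A3 for MK801 minus core, where the median of all genes was -0.21, and -0.0069 for COL5A3 for invasive minus core, where it was -0.25. Leaving out 1 library gave COL5A1 -0.10 to 0.25 for MK801 minus core, and COL5A3 -0.15 to 0.33 for MK801 minus core, 0.01 to 0.50 for invasive minus core and -0.37 to 0.12 for MK801 minus invasive.

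For invasive versus core, limma called 0 genes and 0 chains with all 9 libraries, with 4461 genes at an unadjusted p under 0.05, and voom also called 0. It called 6179 genes (52.2%) and 5 chains in the groups alone, and 2413 (20.4%) and 4 in the groups alone with the GC trend removed. Without the 2 libraries of fewest detected genes it called 14 genes (0.118%). Leaving out 1 library gave 0 to 4888 genes (up to 41.3%) and 0 to 4 chains. COL3A1, which the filter admitted through its invasive values, is among the chains in each of these fits that called chains. For MK801 versus core, leaving out 1 library gave 0 to 5941 genes (up to 50.2%) and 0 to 1 chains. For MK801 versus invasive, 1 gene was called with a filter of 5 FPKM, 54 genes and 3 chains (COL3A1, which the filter admitted through its invasive values, included) with the GC trend removed, and 3 genes in the groups alone with it removed, and leaving out 1 library gave 0 to 42 genes and 0 chains. The causes were not tested.

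Submitters named the core libraries A1c, A2c and A4c, the invasive ones A1i, A2i and A4i and the MK801 ones B1, B2 and B4. Whether a shared number marks the same device is not stated, so replicate numbers were not shown to pair the libraries. Same-numbered invasive and core libraries deviated together with r of -0.01, 0.24 and 0.44. The core library most like invasive replicates 2 and 3 in these deviations was the same-numbered one. For invasive replicate 1 it was core replicate 3. With the replicate block, 2525 genes (21.3%) and 4 chains were called for invasive versus core, and 7134 genes (60.2%) and 5 chains in the groups alone. COL3A1, admitted by its invasive values, is among the chains in both counts. For MK801 versus core the block in the groups alone called 113 genes. For MK801 versus invasive the block with the GC trend removed called 37 genes (0.312%) and 2 chains, COL3A1 among them. The block in the groups alone called 1 gene. COL3A1 in MK801 replicate 1 rests on 3 fragments, in a library of 18.4 M fragments. Values of COL3A1 and COL5A3 were not obtained with the filter of 5 FPKM.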
